A study of Mus musculus with 2 samples.

Results

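The TRIM family was described at the mRNA level in cultured mouse primary hepatocytes, cells isolated from liver, after small interfering RNA (siRNA) against ClpP or against green fluorescent protein (GFP). Members were chosen by name: every gene of the table whose symbol is Trim followed by digits and at most 1 letter, with 1 gene left out by the rule, and with a mean level over both libraries of at least 0.5 FPKM (fragments per kilobase, relative to the mapped fragments of the library). The name matched 44 genes, and 37 of them reached that mean, out of 14339 named genes in the table and 11892 with the same mean. The names and the mean level chose the members, and the difference between the libraries was not used.

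TRIM proteins carry a tripartite motif, a RING finger followed by B-box zinc fingers and a coiled coil, and most are E3 ubiquitin ligases, enzymes that attach ubiquitin to chosen substrates. The part after the motif differs between classes and sets what each protein binds. The largest class ends in a PRY-SPRY domain, others in an NHL repeat or in a PHD finger with a bromodomain. Part of the family is transcribed in response to interferon and restricts viruses or adjusts the signalling that follows virus sensing, while other members serve transcriptional silencing or the upkeep of muscle and neurons.

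The control group was primary hepatocytes given GFP siRNA, and the other group was primary hepatocytes given ClpP siRNA, aimed at a protease of the mitochondrial matrix. Each group held 1 library of poly-A RNA, so differences have no replicate check, no error and no p-value. Per the series' design text, Lipofectamine carried the siRNA into the cells. The sources used here did not give strain, age or sex of the animals, siRNA dose or time of harvest. The measure of a difference was the log2 ratio, log2(FPKM + 1) with ClpP siRNA minus log2(FPKM + 1) with GFP siRNA, a scale on which scarce genes seem to differ less than they do. Genes with a log2 ratio of at least 1 or at most -1 (2-fold) were counted as higher or lower, which is a limit on size and no test.

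Clpp itself stood at 45.1 FPKM with GFP siRNA and 9.32 FPKM with ClpP siRNA, a log2 ratio of -2.16. All 7 hepatocyte markers were in the table, and their summed level was 3308 FPKM with GFP siRNA and 7133 FPKM with ClpP siRNA, of which Alb made up 2952 and 6245 FPKM. Of the 7, 5 were at least 2-fold higher with ClpP siRNA, while Asgr1 (log2 ratio -0.61) and Apob (-0.32) were below 0. The shares over all genes with a mean of at least 0.5 FPKM were 4.95% at least 2-fold higher and 1.95% at least 2-fold lower. In bulk RNA, fewer cells of a type and less RNA per cell cannot be told apart. Of 12 macrophage marker symbols 11 were in the table. The missing symbol, Adgre1, is a newer name of Emr1, which was among the 11 at 0.432 and 0.157 FPKM. The summed level of the 11 was 41.4 FPKM in the control and 233 FPKM with ClpP siRNA, of which Cd68 made up 24.9 and 226 FPKM. Without Cd68 the sums were 16.6 and 6.65 FPKM. Of 6 leukocyte markers only Ptprc was in the table, at 0.0817 and 0.0696 FPKM, and neither of the 2 dendritic cell markers was. The summed levels of the endothelial and stellate markers were 24.8 and 33.9 FPKM in the control and 12.8 and 15.4 FPKM with ClpP siRNA. Of the stellate sums, Acta2 made up 26.5 and 9.47 FPKM. Col3a1 stood at 1.97 and 0.537 FPKM, while Col1a1 (2.69 and 2.72 FPKM) and Dcn (2.69 and 2.68 FPKM) hardly differed. Of the 7 endothelial markers 6 were below 0, and Oit3 was above it at 3.32 and 4.43 FPKM. The part of other cell types in the TRIM differences was not tested.

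The TRIM family split along the list of members known as interferon-inducible. That list was chosen with earlier results of these data known, so the split is a description and no test. Of the 37 members, 9 were at least 2-fold higher with ClpP siRNA and 0 were at least 2-fold lower, where 4.95% of all genes with the same mean level were at least 2-fold higher and 1.95% at least 2-fold lower. All 9 belong to the 11 members listed here as known to be interferon-inducible. Those 11 had a median log2 ratio of 1.30 and ran from 0.54 to 3.63, all above 0. The other 26 had a median of -0.20 and ran from -0.79 to 0.42, with 9 above 0 and 17 below 0. The groups did not overlap with the pseudocount of 1 used here, but with a pseudocount of 5 they did, since Trim8 (0.38) then lay above Trim56 (0.36) and Trim6 (0.23). All genes together had a median of -0.01, and their 16th and 84th percentiles lay at -0.36 and 0.40. Summed over members, which FPKM allows because it is a level per length, the 11 interferon-inducible ones went from 93.0 FPKM with GFP siRNA to 327 FPKM with ClpP siRNA, and the other 26 from 359 to 303 FPKM. The first group thus made up 20.6% of the family's summed FPKM in the control and 51.9% with ClpP siRNA.

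**Figure D1:**
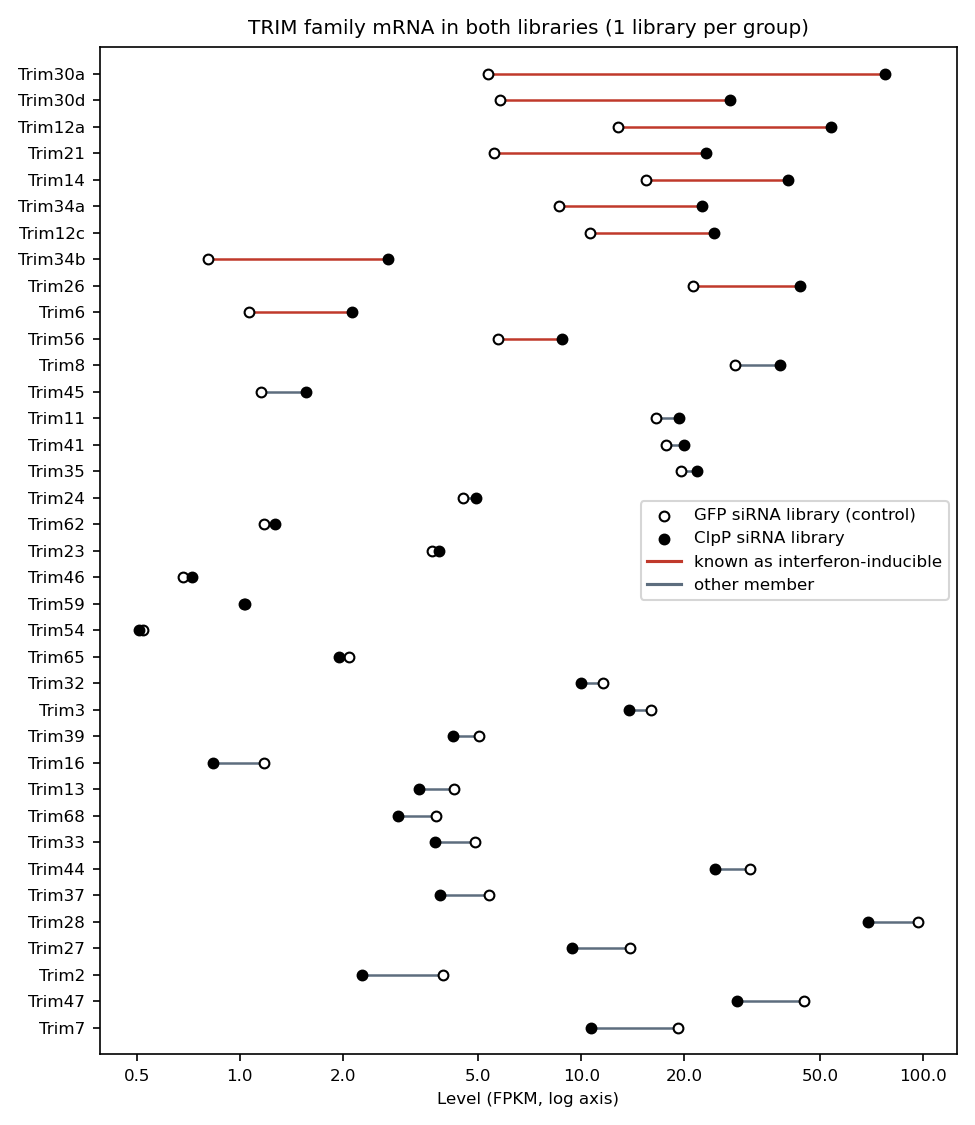
Level of each of the 37 TRIM members in FPKM on a log axis, with the GFP siRNA library as an open circle and the ClpP siRNA library as a filled circle (1 library per group, no error bars). The line joining the circles is red for members known as interferon-inducible, whose filled circle lies to the right in all 11, and grey for the other 26, from Trim8 (28.3 to 38.2 FPKM) to Trim7 (19.2 to 10.7 FPKM).

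Trim30a (NCBI gene 20128) had the highest ratio of the family. This mouse protein restrains NF-kB signalling after Toll-like receptors by acting on the adaptors TAB2 and TAB3. Its level was 5.34 FPKM with GFP siRNA and 77.3 FPKM with ClpP siRNA, a 14.5-fold difference in FPKM and a log2 ratio of 3.63, the 38th highest of all 11892 genes. It held rank 21 among the 37 members by level in the control and rank 1 with ClpP siRNA. Its fold change in the authors' deposited table is 12.0. Its close relative Trim30d (NCBI gene 209387) stood at 5.80 FPKM in the control and 27.3 FPKM with ClpP siRNA, a log2 ratio of 2.06. Trim30a and Trim30d were the 2 members at least 4-fold higher on the log2(FPKM + 1) scale, a size reached by 1.34% of all genes.

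Other members of the same chromosome 7 block are mouse relatives of TRIM5, a primate protein that binds the capsids of incoming retroviruses, or lie beside them. Trim12a (NCBI gene 76681) had 12.8 FPKM with GFP siRNA and 53.9 FPKM with ClpP siRNA. Its log2 ratio of 1.99 was just under 4-fold on the log2(FPKM + 1) scale, while its FPKM differed 4.20-fold. Trim12c (NCBI gene 319236) began at a similar 10.6 FPKM but reached 24.5 FPKM, a log2 ratio of 1.14. Trim34a (NCBI gene 94094), which with Trim34b makes up the mouse copies of human TRIM34, had 8.59 and 22.6 FPKM, a log2 ratio of 1.30. Trim34b (NCBI gene 434218) was scarce, at 0.805 and 2.71 FPKM. Its log2 ratio of 1.04 lay close to the limit, while its FPKM differed 3.37-fold, which shows how the added 1 shrinks the ratio of a scarce gene. Trim6 (NCBI gene 94088), whose human form builds free ubiquitin chains that act on the kinase IKK epsilon, was also scarce at 1.06 and 2.12 FPKM, a log2 ratio of 0.60. Trim30b was listed at 0.0392 and 0.123 FPKM and lay below the minimum. Trim5 and Trim30c were not analysed here.

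Copies that sit side by side share sequence, so the value of a single copy is uncertain. In GENCODE M21 transcripts, 41.3% of the runs of 50 bases in the longest coding transcript of Trim34a also occur in Trim34b, and 59.0% of those of Trim34b occur in Trim34a. For Trim12a and Trim12c, 23.5% and 28.7% of the runs occur in some other TRIM gene, and for Trim30a and Trim30d 6.53% and 8.29%. The sources used here did not give the read length. The copies of each kind in the table were also summed before the ratio was taken. The log2 ratio was then 3.12 for Trim30a, Trim30b and Trim30d, 1.70 for Trim12a with Trim12c and 1.34 for Trim34a with Trim34b. Each of these sums was past 2-fold. Trim5 and Trim30c were in none of them, so reads shared with those genes are not accounted for. The closest gene by shared runs was Trim5 for both Trim12a (17.9%) and Trim12c (24.2%).

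Outside these copies, Trim21 (NCBI gene 20821), a receptor in the cytosol that binds antibody-coated viruses and sends them to the proteasome, had 5.57 FPKM with GFP siRNA and 23.2 FPKM with ClpP siRNA. Its log2 ratio was 1.88. Trim14 (NCBI gene 74735), a member without a RING finger that serves as an adaptor of MAVS signalling at the mitochondrial surface in human cells, had 15.4 and 40.3 FPKM, a log2 ratio of 1.33. On the opposite strand, Nans overlaps 31.3% of the annotated exon bases of Trim14, and the TruSeq v2 kit does not mark strand, so that their reads cannot be told apart there. Nans stood at 23.4 and 30.6 FPKM, a log2 ratio of 0.38. The same limit holds for other members, among them Trim34a (23.5%, Gm47248), Trim54 (26.6%, Gm15469) and Trim46 (6.30%, Krtcap2). Krtcap2 stood at 143 and 117 FPKM, far above Trim46, while Gm47248 and Gm15469 had no level here. Trim26 (NCBI gene 22670), reported to act on the transcription factor IRF3, was already among the abundant members in the control, rank 5 of 37, at 21.3 FPKM. With 43.8 FPKM in the other library its log2 ratio of 1.01 was the member just inside the 2-fold limit, and Trim6 was the nearest outside it. Trim56 (NCBI gene 384309), an antiviral ligase that acts on the DNA sensing pathway, had 5.72 and 8.78 FPKM, a log2 ratio of 0.54. Of the 16 genes listed as interferon-inducible, 14 were in the table, and 3 of these (Trim30b, Trim38 and Trim69) lay below the minimum, with levels of at most 0.201 FPKM in either library.

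**Figure D2:**
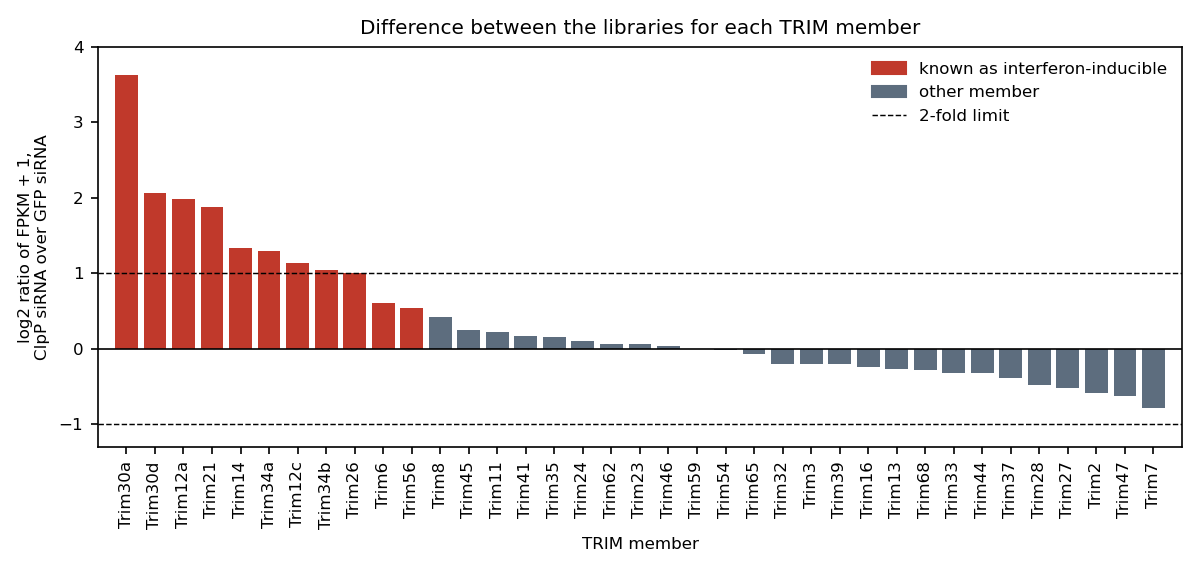
Log2 ratio of FPKM + 1, ClpP siRNA over GFP siRNA, for each of the 37 TRIM members in order, with dashed lines at the 2-fold limit. Red bars are members known as interferon-inducible, which fill the 11 highest places, and 9 of them reach the upper line, while no bar reaches the lower one.

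The most abundant member of the control was Trim28 (NCBI gene 21849), also called KAP1, the corepressor through which KRAB zinc finger proteins silence retroelements. It had 96.9 FPKM with GFP siRNA and 69.0 FPKM with ClpP siRNA, a log2 ratio of -0.48, and held rank 2 there, behind Trim30a. Its share of the family's summed FPKM was 21.4% in the control and 11.0% with ClpP siRNA. The other PHD-bromodomain members were less abundant. Trim33, which acts in signalling by TGF-beta, had 4.87 and 3.72 FPKM (log2 ratio -0.32), and Trim24, a coregulator of nuclear receptors, had 4.51 and 4.92 FPKM (log2 ratio 0.10). None of the 3 passed 2-fold, a count near the shares over all genes (4.95% higher and 1.95% lower).

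The NHL class held 3 members, all below 0. Trim2, a ligase best known from neurons, had 3.94 FPKM in the control and 2.28 FPKM with ClpP siRNA, a log2 ratio of -0.59. Trim3 had 16.1 and 13.8 FPKM and Trim32, mutated in a human muscular dystrophy, 11.6 and 9.98 FPKM, both with a log2 ratio of -0.20. Their summed level was 31.6 FPKM in the control and 26.1 FPKM with ClpP siRNA.

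In the class with a RING finger and a PRY-SPRY domain, 10 members are not listed as interferon-inducible. Of these 10, 4 lay above 0 and 6 below 0, with a median log2 ratio of -0.14, and 0 were at least 2-fold higher. Of all 19 members of the class 8 were, all of them listed as interferon-inducible and most of them neighbouring copies. The share at least 2-fold higher over all genes with a mean of at least 0.5 FPKM was 4.95%. Trim7, which binds glycogenin, the primer of glycogen synthesis, had the lowest ratio of the family at -0.79, with 19.2 FPKM in the control and 10.7 FPKM with ClpP siRNA. Trim47 had 44.9 and 28.6 FPKM, a log2 ratio of -0.63, and was the second most abundant member of the control. Trim27 had 13.9 and 9.39 FPKM, a log2 ratio of -0.52. Trim35, Trim41 and Trim11 lay between 16.6 and 21.9 FPKM in both libraries, with log2 ratios of 0.16, 0.16 and 0.22. The scarcer Trim62 and Trim65, the second reported to act on the RNA sensor MDA5, had log2 ratios of 0.06 and -0.07. Trim41 and Trim7 are next to each other among the protein-coding genes of chromosome 11, and their ratios of 0.16 and -0.79 lay on either side of 0.

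The remaining members end in other domains or, like Trim16, were classed by their lack of a RING finger whatever their ending. Trim8, reported to act on TNF and interleukin signalling, had 28.3 and 38.2 FPKM, a log2 ratio of 0.42, the highest outside the interferon-inducible list. Trim44, a member without a RING finger, had 31.1 and 24.7 FPKM, a log2 ratio of -0.32. Trim16, which also lacks the RING finger, had 1.18 and 0.834 FPKM, a log2 ratio of -0.25. Trim37, a ligase of peroxisomes and centrosomes, had 5.35 and 3.85 FPKM, a log2 ratio of -0.39. Trim13, Trim23, Trim45 and Trim59 ran from -0.27 (Trim13) to 0.25 (Trim45). At the bottom of the filter stood Trim54, a protein of striated muscle, at 0.521 and 0.506 FPKM, with a mean of 0.514 FPKM, and then Trim46 with a mean of 0.702 FPKM. The nearest gene outside was Trim69, with a mean of 0.132 FPKM, so no member lay close below the minimum. In all, 7 genes lay below it.

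**Figure D3:**
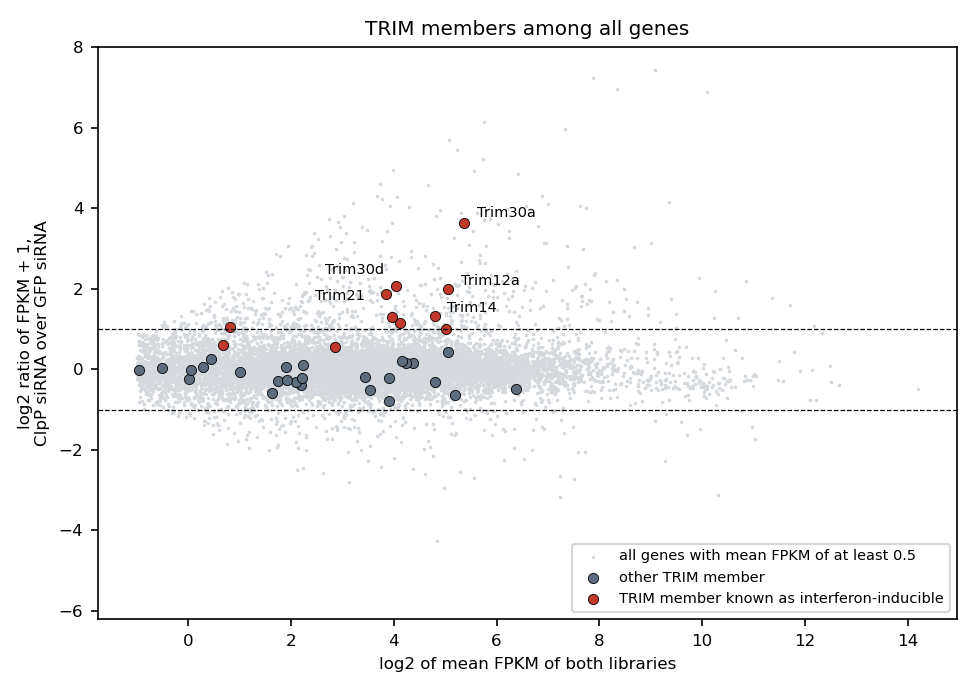
Log2 ratio of FPKM + 1 (ClpP siRNA over GFP siRNA) against the log2 of the mean FPKM for 11892 genes (light grey), with TRIM members known as interferon-inducible in red and the other members in dark grey. Trim30a lies at 3.63 and the 26 other members lie between the dashed 2-fold lines.

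The members past 2-fold were gathered on chromosome 7. Of 11 members on that chromosome 7 were at least 2-fold higher, and of 26 members elsewhere 2 were, Trim14 on chromosome 4 and Trim26 on chromosome 17. Neighbouring copies are counted singly in this, although they share sequence. With neighbouring copies summed, 6 were at least 2-fold higher over all chromosomes, and without the chromosome 7 copies 3 were (Trim14, Trim21 and Trim26). In the order of RefSeq genes (assembly GRCm38.p6), the block runs from Trim6 through Trim34a, Trim5, Trim12a, Trim34b, Trim12c, Trim30b and Trim30c to Trim30a and Trim30d. Trim21 lies before the block and Trim3 behind it. The predicted gene Gm15133, inside the block, was scarce at 0.302 and 0.867 FPKM, a log2 ratio of 0.52. Over all genes with a mean of at least 0.5 FPKM, 4.95% were at least 2-fold higher and 1.95% at least 2-fold lower. From the fifth measured gene before Trim21 to the fifth after Trim3, 18 genes other than TRIM reached the same mean. On the log2(FPKM + 1) scale, 0 of them were past 2-fold in either direction, a count near those shares. With a pseudocount of 0.1, an alternative added after the data were seen, 1 of them was, Gm15133 at 1.27. Their log2 ratios ran from -0.61 (Arfip2) to 0.62 (Rrm1), with a median of 0.07. Within the same stretch Trim68 (3.76 and 2.91 FPKM, log2 ratio -0.28) and Trim3 were TRIM genes below 0. On chromosome 17, which holds Trim26, the member Trim39 stood at 5.03 and 4.22 FPKM, a log2 ratio of -0.21.

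**Figure D4:**
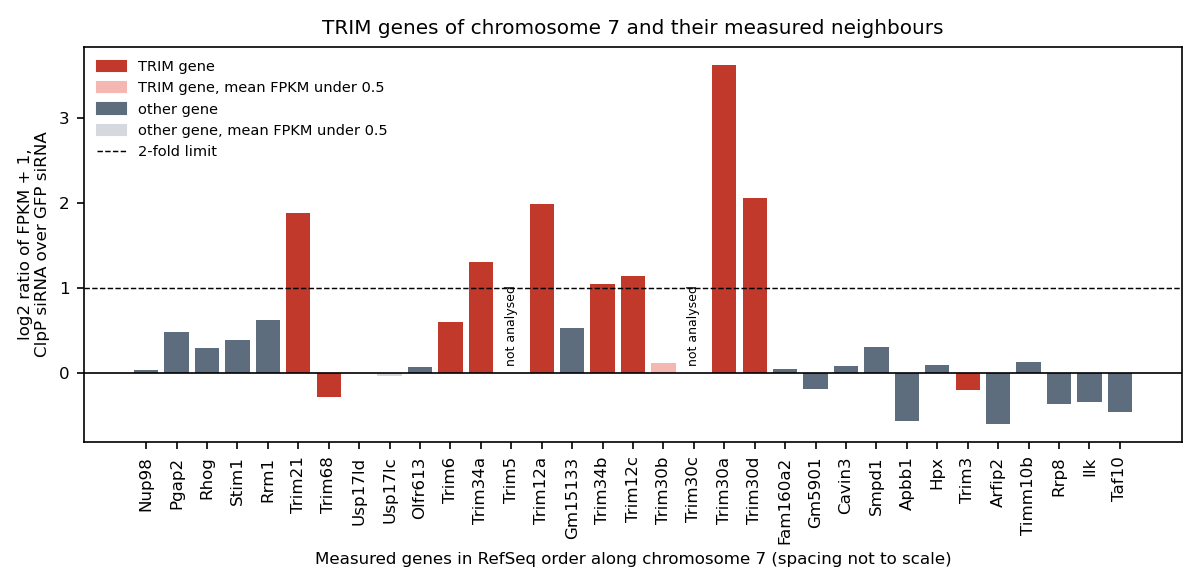
Log2 ratio of FPKM + 1 (ClpP siRNA over GFP siRNA) for measured genes in RefSeq order along chromosome 7, not to scale, with TRIM genes in red, other genes in grey, and paler bars for genes with a mean under 0.5 FPKM. The bars of 7 TRIM genes reach the dashed 2-fold line, and none of the 18 other genes above the minimum does on this scale. Over all genes above the minimum, 4.95% reach that line.

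The promoters of the members that differ most are shown because the same short element recurs in them. The letters searched were GAAA, any 2 bases and GAAA again, on both strands, the core of the interferon-stimulated response element, where STAT and IRF factors bind. The window was 250 bases before to 50 bases after each start site, from RefSeq (GRCm38.p6). Of the 37 members 29 had a window, and Trim14 had none. In the lines that follow, matches are in capitals (a match on the other strand reads TTTC, any 2 bases, TTTC), sequences run 5' to 3' on the strand of the gene, and 30 bases are given on either side where the window allows. The first start site of Trim30a is shown with its whole window at chr7:104465144-104465443 (minus strand), and the others are Trim30a from its second start site at chr7:104446084-104446153 (minus strand), Trim30d at chr7:104507851-104507920 (minus strand), Trim12a at chr7:104315446-104315515 (minus strand), Trim12c at chr7:104353339-104353408 (minus strand), Trim34a at chr7:104244437-104244506 (plus strand), Trim21 at chr7:102565433-102565499 (minus strand) and Trim26 at chr17:36836956-36837031 (plus strand). The window of Trim28 at chr7:13023902-13024201 (plus strand), the most abundant member of the control, is given for comparison and holds no match.
Trim30a, first start: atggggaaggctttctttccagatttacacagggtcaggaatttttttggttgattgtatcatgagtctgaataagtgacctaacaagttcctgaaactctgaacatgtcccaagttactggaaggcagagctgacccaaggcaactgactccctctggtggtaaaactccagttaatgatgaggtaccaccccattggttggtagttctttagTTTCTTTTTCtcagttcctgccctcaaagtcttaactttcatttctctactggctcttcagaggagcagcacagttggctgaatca
Trim30a, second start: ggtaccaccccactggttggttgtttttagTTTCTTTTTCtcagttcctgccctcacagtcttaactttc
Trim30d: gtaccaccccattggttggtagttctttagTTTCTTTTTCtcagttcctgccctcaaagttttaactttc
Trim12a: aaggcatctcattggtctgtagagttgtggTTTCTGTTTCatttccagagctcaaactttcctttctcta
Trim12c: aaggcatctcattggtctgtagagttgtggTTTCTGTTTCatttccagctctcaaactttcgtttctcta
Trim34a: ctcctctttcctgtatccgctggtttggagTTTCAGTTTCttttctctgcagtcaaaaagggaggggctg
Trim21: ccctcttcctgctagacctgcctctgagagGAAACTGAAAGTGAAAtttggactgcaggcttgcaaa
Trim26: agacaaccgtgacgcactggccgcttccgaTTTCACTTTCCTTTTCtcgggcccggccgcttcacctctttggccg
Trim28: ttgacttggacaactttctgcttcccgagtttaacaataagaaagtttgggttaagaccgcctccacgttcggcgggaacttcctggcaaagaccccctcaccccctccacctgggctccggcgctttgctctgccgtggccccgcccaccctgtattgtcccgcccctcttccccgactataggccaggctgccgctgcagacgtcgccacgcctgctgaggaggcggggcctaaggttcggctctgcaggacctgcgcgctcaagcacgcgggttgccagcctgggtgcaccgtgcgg

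Of the 8 members at least 2-fold higher that had a window, 7 held this core of 2 GAAA words, and of the 21 members within 2-fold 1 did. That 1 was Trim2, at the last of its 5 start sites. A member was counted if any of its start sites held a match. Counted in the same way, the share was 3.70% of the 9538 genes with a mean of at least 0.5 FPKM and a window, and over all 32851 single RefSeq windows of the same length it was 3.44%. The match began at -36 from the first start site of Trim30a and at 2 from the second, counted with 0 at the start site and negative before it. It began at -41 in Trim30d, at -29 in Trim12c, and at 10 in both Trim12a and Trim34a. Trim21 and Trim26 each held 2 overlapping matches, at 13 and 19 in Trim21 and at -160 and -154 in Trim26. The copies are alike around the element. Over 70 bases aligned on the match, the first start of Trim30a and that of Trim30d share 69 bases, and Trim12a and Trim12c share 67, while Trim30a and Trim12a share 36. These pairs are therefore not independent instances of the element. Trim34b, Trim6 and Trim56 held no match in these windows. The STAT element TTCNNNGAA (the same on both strands) was found in 0 of the 8 members and in 2 of the 21, Trim45 and Trim46. It was in 8.36% of the 9538 genes with a mean of at least 0.5 FPKM and a window, and in 8.30% of all windows. A match is a description of the letters, and whether a factor binds there was not measured.

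**Figure D5:**
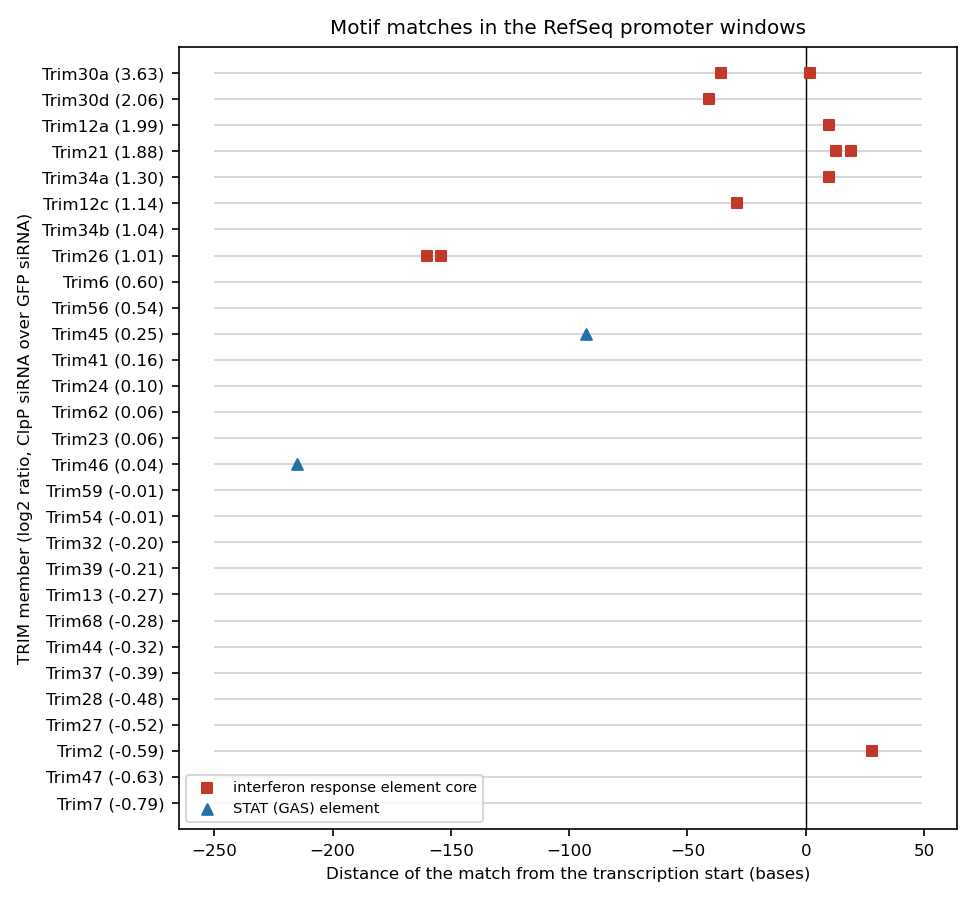
Position of motif matches in bases from the transcription start, in the promoter windows of 29 TRIM members ordered by log2 ratio (value in brackets after each name). Red squares are matches of the response element core, found in 7 of the 8 members past 2-fold and in Trim2 at 28, and blue triangles are TTCNNNGAA matches.

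Of 5 listed genes of TRIM proteins that carry other names, 4 were in the table and 3 reached the minimum. Bspry, at 0.258 and 0.0676 FPKM, lay below it. Of the 3, only Pml was at least 2-fold higher, where 4.95% of all genes were. Pml, the organiser of nuclear bodies and a known interferon-inducible gene, had 13.1 FPKM with GFP siRNA and 47.7 FPKM with ClpP siRNA, a log2 ratio of 1.78. Mid1 and Mid2, ligases bound to microtubules, had log2 ratios of -0.25 and 0.14. The interferon response list of 30 genes, given for scale, had 29 at least 2-fold higher and a median log2 ratio of 3.41, which is above the ratio of every TRIM member but Trim30a. Over all genes with a mean of at least 0.5 FPKM, 4.95% were at least 2-fold higher and 1.95% at least 2-fold lower. Of 17 genes of the virus sensing pathway in which TRIM proteins act, 15 reached the minimum. Mb21d1 (0.0782 and 0.574 FPKM) and Tmem173 (0.430 and 0.345 FPKM) lay below it. Among the 15, 5 were at least 2-fold higher and 0 lower, led by Irf7 (3.14), Dhx58 (3.06) and Ifih1 (1.87). The interferon response list also holds 4 of these 5, and the fifth was the ligase Rnf135 (1.14). The adaptor Mavs stood at 16.3 and 16.9 FPKM, a log2 ratio of 0.05. Of 13 ubiquitin-activating and ubiquitin-conjugating enzymes that supply ligases, 0 were past 2-fold, a count near the shares over all genes. These enzymes ran from Ube2d1 at -0.60 to Ube2v1 at 0.36. The RING finger genes named Rnf were a comparison added after the values of the TRIM genes were seen. Of these, 3 of 59 were at least 2-fold higher and 0 lower, which is also near the shares over all genes. Their median was 0.02, while TRIM had 9 of 37 at least 2-fold higher and a median of 0.06.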

How the data were processed

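The deposited table lists genes by NCBI gene ID and symbol, with the FPKM of each library as the authors computed it, per the file headers. The submitters' processing notes name STAR 2.4.0f1, TopHat2 2.0.13, Bowtie2 2.2.3, Cufflinks 2.2.1, Trimmomatic 0.32 and FastQC 0.10.0, without saying what each was used for. No source used here gives the genome build, so RefSeq tables (GRCm38.p6) and GENCODE M21 served only for names, gene order, overlaps and sequences matched by gene ID or symbol. The deposited log2 columns equal log2(FPKM + 1) after quantile normalization of both libraries, to within 0.01 for 99.993% of values. The deposited fold change, treated as a score, is signed and negative where ClpP siRNA was lower. A column of the geometric mean of the log2 values was not used.

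The header of the second library is abbreviated, and its name alone was taken to mean ClpP siRNA. The table has 14346 rows and no value of 0, and genes without a value in either library were not analysed here. A total of 7 rows without a symbol were left out (0.0475% and 0.0335% of the FPKM). FPKM totals were 532302 and 535135 with GFP and with ClpP siRNA. Read counts cannot be had from FPKM, so depth is unknown and no interval is given.

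Log2 ratios were computed with Python 3.11.15, pandas 2.3.3 and NumPy 2.4.6, with a pseudocount of 1. The members, the interferon-inducible list and the other lists were chosen with earlier results of these data known. Named with values are the members past 2-fold, the interferon-inducible list, the most abundant members and those nearest to each limit, and further members were named after their values were seen.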

Additional observations from a re-analysis of the deposited data

How the results depend on the processing

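The results were recomputed under 9 alternatives (pseudocounts of 0.1 and 5, 3 other filters, and 4 other scalings) and under 2 added after the data were seen. The number of members at least 2-fold higher stayed at 9 with a pseudocount of 0.1, under the other filters and under scaling to the same FPKM total or by the median of ratios. It was 7 under upper quartile scaling and in the authors' quantile-normalized columns, where Trim26 (0.95 and 0.93) and Trim34b (0.997 and 0.99) came out under the limit, and 6 with a pseudocount of 5, where Trim12c (0.92) did as well. It was 6 with neighbouring copies summed and 3 (Trim14, Trim21 and Trim26) without the chromosome 7 copies. No member was at least 2-fold lower under any of these. The 26 other members stayed between -0.84 and 0.44 and the 11 interferon-inducible ones between 0.23 and 3.83. The median of the latter ran from 1.02 with a pseudocount of 5 to 1.38 with 0.1. Over all genes, the numbers at least 2-fold higher and lower were 865 and 461 with a pseudocount of 0.1. With 5 they were 327 and 89, against 589 and 232 with 1. The members known as interferon-inducible and the other members overlapped with a pseudocount of 5 (Trim8 at 0.38, Trim6 at 0.23). Taken over the same 37, they did not overlap with a pseudocount of 0.1 or under the 4 other scalings. The 3 other filters leave the ratios of these members unchanged, so they could not show an overlap among them. With no filter, the listed Trim38 (-0.05), Trim30b (0.11) and Trim69 (0.17) lay below Trim8 (0.42). Of the 18 chromosome 7 neighbours, 1 was at least 2-fold higher with a pseudocount of 0.1 and 0 with 5. No scaling moved the median of all genes by more than 0.06.

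No paired analysis was possible because each group has 1 library. For the same reason no library was left out in turn.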

Other observations

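The response element core (GAAA, any 2 bases, GAAA) was counted in the windows of all measured genes as well, after it had been seen in the TRIM promoters. Among 9538 genes with a mean of at least 0.5 FPKM and a RefSeq window, it was present in 79 of the 444 genes at least 2-fold higher with ClpP siRNA (17.8%), in 269 of the 8919 within 2-fold (3.02%) and in 5 of the 175 at least 2-fold lower (2.86%). The TTCNNNGAA element was present in 10.6%, 8.22% and 9.71% of the same groups. The TRIM members are part of these counts.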
